A study of Triticum aestivum with 24 samples.

Results

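The GA3 treatment of the *Rht-D1b* dwarf line was compared with water, over every gene with at least 0.5 TPM (the share of a library's transcripts that belong to a gene, corrected for length and scaled to the same total in every library) in at least 4 of its 8 libraries. This rule kept 58120 of the 107891 gene models in the table, and all 58120 were among the 63241 genes fitted over the whole series. The *Rht-D1b* groups were 4 libraries of seedlings treated with 100 µM GA3 and 4 libraries of seedlings given water. The same treatments of the *idd5* mutant and of wild-type Cadenza, with 4 libraries a group, served for comparison. All 3 genotypes of this hexaploid bread wheat were in the Cadenza background, and *Rht-D1b* is a near-isogenic line carrying the semi-dwarfing allele of *RHT-D1*. Seedlings were 7 d old, and the section of leaf sheath from the grain up to the coleoptile tip was collected 8 h after treatment. The labels call the libraries of a group biological replicates and do not say how many plants each holds.

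Gibberellin (GA) promotes elongation of leaf sheaths and stems. The hormone binds the receptor GID1, which then captures DELLA proteins, the repressors of GA responses, and sends them to degradation. In wheat the DELLA proteins are encoded by the *RHT* homoeologues, one in each of the A, B and D subgenomes. The *Rht-D1b* allele yields a DELLA protein without the N-terminal region that GID1 recognises, so that it persists when GA is supplied, and the line is short and GA-insensitive. The *RHT-A1* and *RHT-B1* copies of the line are not altered by this allele. *IDD5* encodes a zinc finger protein of the INDETERMINATE DOMAIN family that interacts with DELLA proteins. The comparison asks what transcript response to GA3 was left in a plant with such a stable DELLA protein.

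The 8 *Rht-D1b* libraries did not fall into treatments as a whole. Between 57460 and 58261 genes per library reached 0.5 TPM. Across genes, log2(TPM + 0.5) had a median correlation of 0.966 for the 16 library pairs that differed in treatment and of 0.966 for the 12 pairs that shared it. The first principal component held 22.3% of the variance and had GA3 replicates 1 and 3 at its opposite ends. Treatment accounted for 4.3% of the variance between libraries along it, and for at most 37.7% along any of the 7 components. The sheath origin of the tissue could not be checked against marker genes, because no source used here pairs the identifiers of the table with names beyond 6 genes. These are whole-tissue samples, so fewer cells of a type and less RNA per cell cannot be told apart.

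With GA3, 0 of the 58120 genes (0%) passed an adjusted p of 0.01 in *Rht-D1b*, and the smallest adjusted p (Benjamini-Hochberg, limma's test) was 0.368. An unadjusted p under 0.05 was reached by 3395 genes (5.84%), of which 1314 (2.26%) were higher and 2081 (3.58%) lower with GA3. Where nothing changes, a share of 0.05 of the genes is expected under that threshold. In *idd5*, 0 of the same genes (0%) passed the adjusted threshold, and 1071 (1.84%) were higher and 2796 (4.81%) lower at an unadjusted p under 0.05. In Cadenza, 58 genes (0.0998%) passed the adjusted threshold, and 1919 (3.3%) were higher and 3349 (5.76%) lower at the unadjusted one. Over all genes the change in *Rht-D1b* was above 0 for 46.4% and below 0 for 53.6%, with a median of -0.01 on the log2 scale. The excess of lower genes moved with single libraries. It was smallest without GA3 replicate 3 (1577 higher and 1657 lower) and largest without GA3 replicate 4 (1205 higher and 2611 lower). Without water replicate 2 or without water replicate 4, the lower genes made up 54%, against 61.3% with all libraries. Under median-ratio scaling of the libraries, 1610 genes were higher and 1883 lower.

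**Figure D1:**
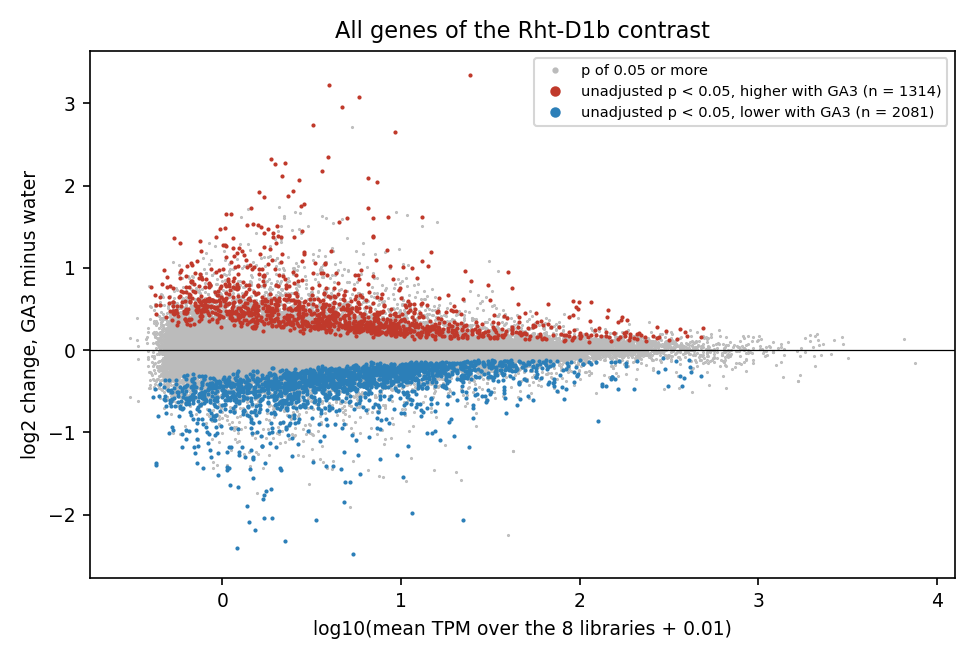
Change with GA3 in *Rht-D1b* (vertical axis, log2 scale) against mean level (horizontal axis, log10 of TPM) for the 58120 genes, one point a gene. Red points are the 1314 genes that were higher and blue points the 2081 that were lower at an unadjusted p under 0.05, and the spread of all points narrows as the level rises.

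The libraries were precise enough to limit the size of change that most genes could have had. The median standard error of a gene's log2 change was 0.15, and the 95% interval lay within a 2-fold change either way for 92.4% of the genes. For the 3291 genes averaging 50 TPM or more this share was 98.8%, and 94.3% of their intervals lay within 1.5-fold. For the 15033 genes with a mean under 2 TPM the shares were 84.4% and 43.6%. Changes on the log2(TPM + 0.5) scale understate those of such low genes. None of the 3291 most abundant genes had an estimated change over 2-fold.

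An estimated change over 2-fold was found for 354 of the 58120 genes, with 185 higher and 169 lower with GA3. Of the 185, 44 had GA3 libraries all above the water libraries, and of the 169, 37 had them all below. Over all 58120 genes the shares were 1.01% above and 1.72% below. Choosing genes on the size of the change favours such a separation, so the shares over all genes are no equal baseline. In 31 of the 185 and 34 of the 169 genes, 1 library held more than 0.5 of the summed TPM of its group, taken in the treatment with the higher level. The highest estimate belonged to a gene on chromosome 3A, with 50.2, 31.9, 24.1 and 40.1 TPM with GA3, against 28.8, 0, 0 and 20.3 TPM with water. Its log2 change was 3.35 with a standard error of 1.25. Water replicates 2 and 3 were listed at 0, replicate 1 lay among the GA3 libraries and replicate 4 just below them. The lowest estimate, -2.48 with a standard error of 0.63, belonged to a gene on chromosome 4B that was listed at 0 in GA3 replicates 1 and 4.

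Counted without a model, the 4 GA3 libraries lay above the 4 water libraries for 588 genes (1.01%) and below them for 1000 (1.72%). Where nothing changes, a share of 0.0286 of the genes is expected to separate fully, counting either direction. The observed shares add up to no more than this, so these counts by themselves do not show a response. No gene was listed at 0 TPM in all 4 water libraries and at 0.5 TPM or more in all 4 GA3 libraries. The reverse was found for 3 genes, on chromosomes 2A, 6D and 7D. The gene on 6D was listed at 0 in every GA3 library, against 1.31, 4.62, 2.13 and 1.55 TPM in the water libraries. The gene on 7D was likewise at 0 with GA3, against 1.17, 1.09, 0.55 and 0.51 TPM with water, and the gene on 2A at 0 against 0.59, 0.83, 1.13 and 0.78 TPM. In *idd5* and Cadenza each of these 3 genes was above 0 in at least 1 library of both treatments.

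Across the genome, the share of genes at an unadjusted p under 0.05 stayed near the 5.84% of all genes. Genes at an unadjusted p under 0.05 made up 6.03% of the 19445 A subgenome genes, 5.67% of the 18780 B genes and 5.8% of the 19146 D genes. By chromosome the share ran from 4.76% on 7B to 6.62% on 7A. The lower genes outnumbered the higher ones on each of the 21 chromosomes, as over all genes, where this excess moved with single libraries. The chromosome medians lay between -0.018 and -0.005. On chromosome 4D, which carries the *RHT-D1* locus, 39 genes were higher and 81 lower, or 5.25% of 2287.

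The DELLA genes themselves were examined next. *RHT-D1* (TraesCS4D02G040400), the copy that carries the dwarfing allele, had 119.8, 100.1, 116 and 101 TPM in the GA3 libraries of *Rht-D1b*, against 106, 103, 106 and 103 TPM in the water libraries. GA3 replicates 1 and 3 were above all water libraries and GA3 replicates 2 and 4 below them, so that the groups overlapped. The means were 109 ± 10.3 TPM with GA3 and 105 ± 1.69 TPM with water (SD, n = 4 each). The exact two-sided permutation test gave p = 0.429. The log2 change was 0.06, with a 95% interval of -0.09 to 0.21 and an adjusted p of 0.961 in limma's test.

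*RHT-A1* (TraesCS4A02G271000) had 88.4, 75.0, 87.5 and 76.1 TPM with GA3, against 76.7, 68.7, 83.8 and 73.9 TPM with water. *RHT-B1* (TraesCS4B02G043100) had 94.2, 75.1, 87.7 and 72.1 TPM with GA3, against 76.8, 71.8, 82.2 and 74.5 TPM with water. In both genes GA3 replicates 1 and 3 were again the highest libraries of all 8, and the other GA3 libraries lay within the range of the water libraries. The log2 change was 0.11 for *RHT-A1* (interval -0.05 to 0.26, adjusted p = 0.916 in limma's test) and 0.10 for *RHT-B1* (interval -0.06 to 0.26, adjusted p = 0.928 in limma's test). Exact two-sided permutation tests gave p = 0.229 for *RHT-A1* and p = 0.314 for *RHT-B1*. With each library left out in turn, the change ran from 0.06 (without water replicate 2) to 0.16 (without water replicate 3) for *RHT-A1* and from 0.03 (without GA3 replicate 1) to 0.16 (without GA3 replicate 4) for *RHT-B1*. For *RHT-D1* it ran from 0.01 (without GA3 replicate 1) to 0.10 (without GA3 replicate 2). The homoeologues are close in sequence, and how reads shared between them were divided cannot be seen in the table.

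In Cadenza the same genes were higher in every GA3 library than in any water library. *RHT-D1* had 83.6, 83.1, 94.2 and 89.5 TPM with GA3 in Cadenza, against 70.6, 61.5, 63.7 and 66.9 TPM with water (exact two-sided permutation test, p = 0.0286, the smallest that 4 libraries against 4 allow). Its log2 change there was 0.41 (standard error 0.07), with an adjusted p of 0.01001 in limma's test, just outside the threshold. In *idd5* it was 0.01, with 54.0 ± 5.24 TPM with GA3 and 53.5 ± 2.80 TPM with water (SD, n = 4 each). The difference of the *RHT-D1* response, *Rht-D1b* minus Cadenza, was -0.36 on the log2 scale with a standard error of 0.10. Its unadjusted p was 0.00213 and its adjusted p 0.568 in limma's test, so it did not pass over all genes. For *RHT-A1* and *RHT-B1* the differences of the response were -0.22 and -0.19, with adjusted p of 0.845 and 0.881 in limma's test.

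The *IDD5* homoeologues, whose product binds DELLA proteins, had far lower TPM levels than the *RHT* genes in this line and gave estimates of change near 0. *IDD5-A1* (TraesCS2A02G188400) had 8.01, 8.74, 8.97 and 8.73 TPM with GA3, against 8.75, 7.35, 8.81 and 8.90 TPM with water. *IDD5-B1* (TraesCS2B02G218900) had 7.96, 7.86, 9.57 and 8.11 TPM with GA3, against 8.28, 8.61, 8.03 and 8.83 TPM with water. *IDD5-D1* (TraesCS2D02G199300) had 9.58, 10.1, 12.1 and 10.1 TPM with GA3, against 11.7, 9.63, 11.6 and 10.9 TPM with water. In each of the 3 genes the groups overlapped. The log2 changes were 0.03, -0.01 and -0.06 for *IDD5-A1*, *IDD5-B1* and *IDD5-D1*, and all intervals lay between -0.23 and 0.20. The signs for *IDD5-A1* and *IDD5-B1* depended on single libraries: without water replicate 2 the change of *IDD5-A1* was -0.03, and without GA3 replicate 2 that of *IDD5-B1* was 0.01.

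**Figure D2:**
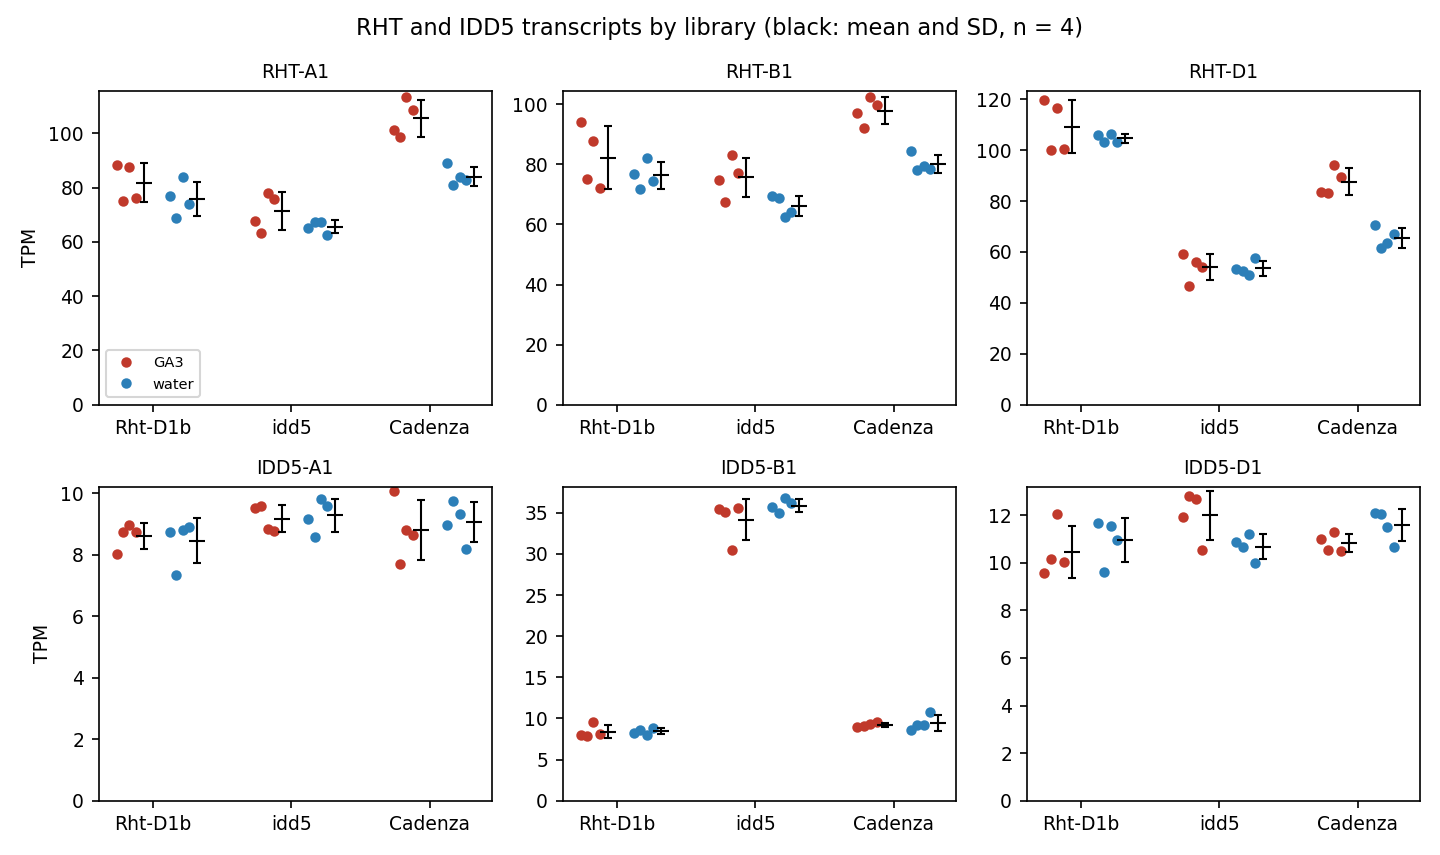
TPM of the *RHT* and *IDD5* homoeologues (vertical axes) in each library of *Rht-D1b*, *idd5* and Cadenza (horizontal axes), with GA3 in red to the left of water in blue and the mean and SD of 4 libraries in black. For *RHT-D1* the 4 GA3 libraries of Cadenza lie above its 4 water libraries, while those of *Rht-D1b* lie on both sides of its water libraries.

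The genes with the smallest p in *Rht-D1b* did not pass the adjusted threshold and are given for their values. No source used here pairs these identifiers with gene names, so their functions are not stated. TraesCSU02G268900, a gene not placed on a chromosome, had 59.7, 48.4, 52.7 and 49.8 TPM with GA3, against 31.4, 37.1, 28.7 and 27.1 TPM with water. The groups did not overlap, and the log2 change was 0.76 (standard error 0.13, adjusted p = 0.368 in limma's test). Its change was 0.08 in *idd5* and 0.25 in Cadenza, where the groups overlapped in both. The difference of its response, *Rht-D1b* minus Cadenza, was 0.51 with an adjusted p of 0.737 in limma's test. TraesCS4A02G135400, on chromosome 4A, had 8.32, 10.4, 9.13 and 9.50 TPM with GA3, against 6.74, 6.22, 6.95 and 6.35 TPM with water, again without overlap. Its log2 change was 0.47 (standard error 0.09, adjusted p = 0.393 in limma's test), and it was 0.17 in *idd5* and 0.08 in Cadenza. For this gene the difference between *Rht-D1b* and Cadenza was 0.39, with an adjusted p of 0.682 in limma's test.

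Of the genes that were lower, TraesCS6B02G117300, on chromosome 6B, had 9.05, 9.83, 8.49 and 11.7 TPM with GA3, against 18.2, 20.4, 20.8 and 20.8 TPM with water. The groups were well apart, with a mean ratio of 0.488 and a log2 change of -1.01 (standard error 0.19, adjusted p = 0.368 in limma's test). Its change was -0.71 in *idd5* and -0.68 in Cadenza, where the groups overlapped in both. TraesCS7A02G056300, on chromosome 7A, had 16.5, 14.2, 13.2 and 15.1 TPM with GA3, against 19.6, 22.3, 20.5 and 18.5 TPM with water. Its log2 change was -0.45 (standard error 0.09, adjusted p = 0.368 in limma's test), against 0.00 in *idd5* and -0.01 in Cadenza. The difference of its response between *Rht-D1b* and Cadenza was -0.44 with an adjusted p of 0.501 in limma's test. Each of these 4 genes reached p = 0.0286 in the exact two-sided permutation test, which is the smallest possible value and which the choice of genes without overlap fixes.

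**Figure D3:**
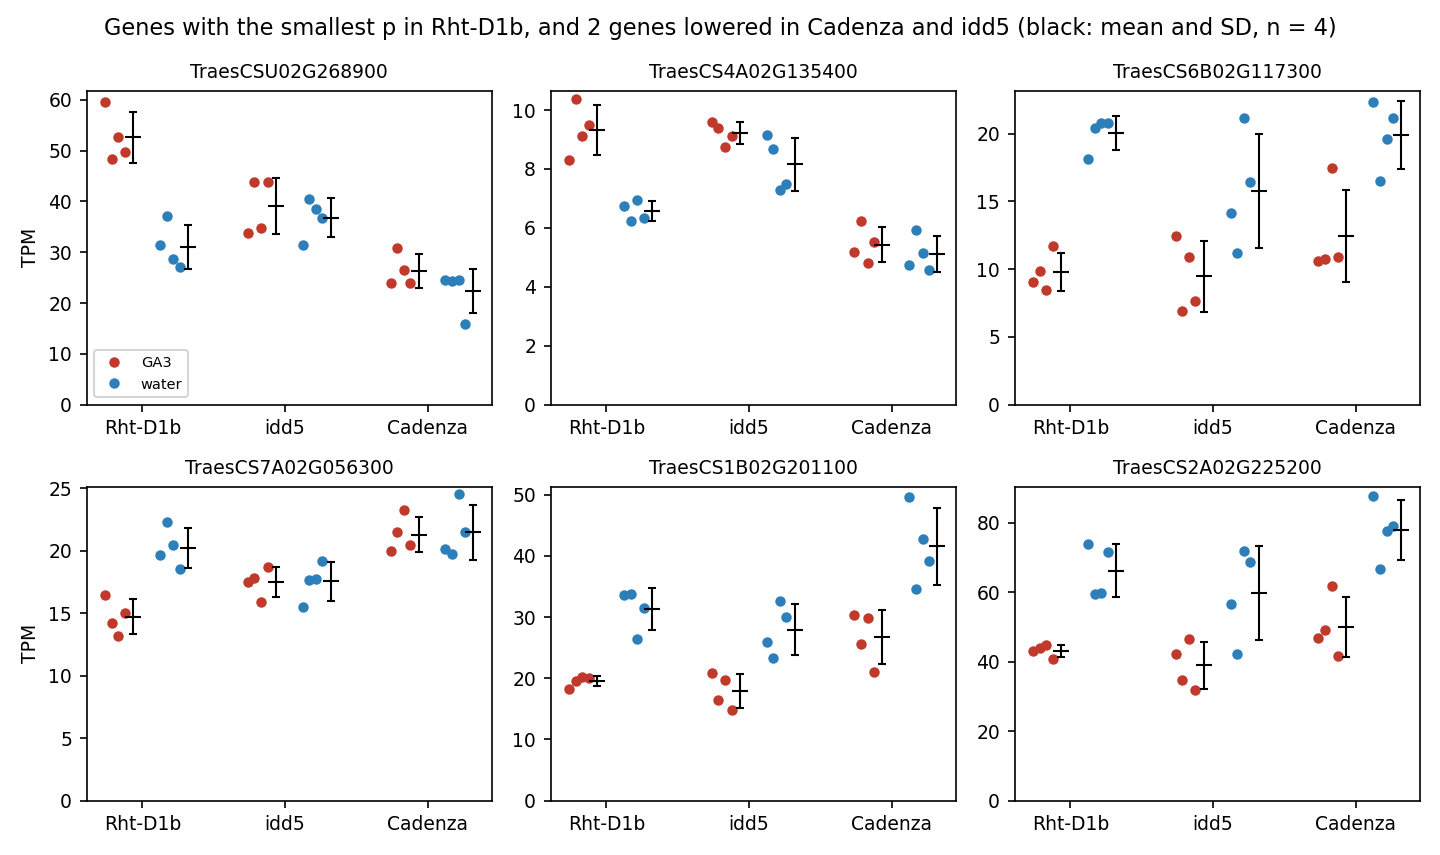
TPM by library (vertical axes) of the 2 genes higher and the 2 lower with the smallest p in *Rht-D1b*, and of TraesCS1B02G201100 and TraesCS2A02G225200, which were lowered in Cadenza and *idd5*, for each genotype (horizontal axes), with GA3 in red left of water in blue and mean and SD of 4 libraries in black. TraesCS6B02G117300, TraesCS1B02G201100 and TraesCS2A02G225200 have a lower mean with GA3 in all 3 genotypes, while the means of TraesCS7A02G056300 are close in *idd5* and Cadenza and apart in *Rht-D1b*, a difference between genotypes that did not pass the adjusted test.

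The genes that GA3 changed in Cadenza were then followed in *Rht-D1b*. Of the 58120 genes, 30 were raised and 28 lowered in Cadenza at an adjusted p under 0.01, with median log2 changes of 0.48 and -0.87 there. Cadenza libraries chose these genes, which enlarges their Cadenza values, so the gap between genotypes is a description. The fit gives a gene 1 spread for all genotypes, so this choice also favours a small p in *Rht-D1b*, in either direction. Of the 30 raised genes, 25 had a change above 0 in *Rht-D1b*, with a median of 0.09 and a range of -0.07 to 0.29. An unadjusted p under 0.05 was reached in *Rht-D1b* by 5 of the 30 (16.7%), all of them higher, beside 2.26% of all genes. Of the 28 lowered genes, 24 had a change below 0 in *Rht-D1b*, with a median of -0.12 and a range of -0.63 to 0.04. Here 5 of the 28 (17.9%) reached an unadjusted p under 0.05, all of them lower, beside 3.58% of all genes. Only 1 gene of each list had a change in *Rht-D1b* larger than 0.5 times its Cadenza change, and for 15 of the 30 and 15 of the 28 the 95% interval in *Rht-D1b* excluded a change of that size. In Cadenza 11 of the 28 lowered genes changed by over 2-fold, and in *Rht-D1b* 0 did.

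Library by library, the raised genes had medians of 0.13, 0.00, 0.03 and -0.02 in the GA3 libraries of *Rht-D1b*, against -0.03, -0.08, -0.02 and -0.04 in the water libraries, as log2 distance from the mean of the 8. The first GA3 library stood highest. Without GA3 replicate 1 the share of raised genes above 0 was 62.5%, with a median of 0.04. The lowered genes had medians of -0.04, -0.07, -0.02 and -0.10 in the GA3 libraries, against 0.13, -0.05, 0.14 and 0.14 in the water libraries. Water replicate 2 lay among the GA3 libraries, and without it the median change of the lowered genes in *Rht-D1b* was -0.22, over a list called again in that fit. Without GA3 replicate 2 it was -0.20 (17 genes). In Cadenza the lowered genes had medians of -0.55 to -0.41 in the GA3 libraries and 0.39 to 0.57 in the water libraries.

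Single genes of these lists differed in how much of the change was seen in *Rht-D1b*. TraesCS7B02G456500, on chromosome 7B, had 31.5, 22.4, 22.4 and 26.7 TPM with GA3 in *Rht-D1b*, against 37.9, 31.5, 43.7 and 36.0 TPM with water. Only the lowest water library and the highest GA3 library met, and the log2 change was -0.53 (standard error 0.13, adjusted p = 0.547 in limma's test). It was -0.36 in *idd5* and -1.25 in Cadenza, where the gene had 11.2, 12.4, 13.5 and 12.4 TPM with GA3, against 26.0, 28.4, 29.2 and 37.6 TPM with water. TraesCS7D02G149200, on chromosome 7D, had 61.7, 59.1, 49.7 and 67.6 TPM with GA3 in *Rht-D1b*, against 63.1, 52.0, 71.4 and 70.9 TPM with water. Its log2 change was -0.11 in *Rht-D1b* and -1.29 in Cadenza, where it had 14.0 to 18.3 TPM with GA3, against 35.1 to 43.8 TPM with water. The difference of its response, 1.18 on the log2 scale with a standard error of 0.19, had the smallest p of all 58120 genes (adjusted p = 0.227 in limma's test).

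Of the raised genes, TraesCS5D02G516200, on chromosome 5D, had 62.5, 63.7, 60.1 and 58.9 TPM with GA3 in *Rht-D1b*, against 58.7, 61.0, 59.5 and 59.2 TPM with water. The groups overlapped, with a log2 change of 0.04 and an interval of -0.07 to 0.14, while the change in Cadenza was 0.42. TraesCS3D02G244900, on chromosome 3D, had 189, 179.6, 204 and 189 TPM with GA3 in *Rht-D1b*, against 167, 152, 164 and 176 TPM with water. Here the groups did not overlap, and the log2 change was 0.21 (standard error 0.08, adjusted p = 0.78 in limma's test), against 0.22 in *idd5* and 0.59 in Cadenza.

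The difference of the GA3 response between *Rht-D1b* and Cadenza was tested for every gene. It passed an adjusted p of 0.01 for 0 genes (0%), and 3506 genes (6.03%) had an unadjusted p under 0.05. The median standard error of this difference was 0.21, against 0.15 for the response of 1 genotype. Among the genes chosen in Cadenza, 27 of the 30 raised and 26 of the 28 lowered had an unadjusted p under 0.01 for the difference. The Cadenza changes that chose these genes are also part of the difference. The choice therefore largely fixed these counts, and they are no separate evidence of a difference.

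A list chosen without any *Rht-D1b* mean was made of the genes at an unadjusted p under 0.01 in the same direction in both Cadenza and *idd5*, a rule added after the values had been seen. It held 17 raised and 57 lowered genes, of which 2 and 3 were also among the genes called in Cadenza. Under median-ratio scaling it held 48 raised and 29 lowered genes. In *Rht-D1b* 48 of the 57 lowered genes had a change below 0, with a median of -0.21, beside -0.55 in *idd5* and -0.53 in Cadenza. An unadjusted p under 0.05 in the same direction was reached by 24 of the 57 (42.1%), beside 3.58% of all genes, and in the opposite direction by 1. The fit gives a gene 1 spread for all genotypes, so choosing on p in Cadenza and *idd5* favours a small p in *Rht-D1b*. The shares over all genes are therefore no equal baseline for this list. In 27 of the 57 the change in *Rht-D1b* was larger than 0.5 times that in Cadenza. All 57 lowered genes together had medians of -0.13, -0.15, -0.15 and -0.06 in the GA3 libraries of *Rht-D1b*. In the water libraries these were 0.03, 0.08, 0.09 and 0.21, without overlap. Of the 17 raised genes 16 had a change above 0 in *Rht-D1b*, with a median of 0.10, and 4 (23.5%) reached an unadjusted p under 0.05, beside 2.26% higher among all genes. This median was 0.06 without GA3 replicate 1 and 0.15 without GA3 replicate 2.

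Among these lowered genes, TraesCS1B02G201100, on chromosome 1B, had 18.3, 19.5, 20.1 and 20.0 TPM with GA3 in *Rht-D1b*, against 33.6, 33.7, 26.5 and 31.5 TPM with water. No libraries overlapped in any of the 3 genotypes, and the log2 change was -0.66 in *Rht-D1b*, -0.63 in *idd5* and -0.63 in Cadenza. TraesCS2A02G225200, on chromosome 2A, had 43.0, 43.9, 44.8 and 40.8 TPM with GA3 in *Rht-D1b*, against 74.0, 59.5, 59.8 and 71.6 TPM with water. Its changes were -0.61, -0.60 and -0.64 in the same order of genotypes. The differences of the response between *Rht-D1b* and Cadenza were -0.03 (standard error 0.18) for the first gene and 0.04 (standard error 0.21) for the second. In *Rht-D1b* alone neither gene passed, with adjusted p of 0.393 and 0.547 in limma's test.

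The gene of this list that went the other way, TraesCS3A02G076200 on chromosome 3A, had 12.1, 14.6, 10.2 and 11.8 TPM with GA3 in *Rht-D1b*, against 4.64, 8.44, 7.87 and 10.7 TPM with water. The highest water library lay above the lowest GA3 library, and the log2 change was 0.64 (adjusted p = 0.762 in limma's test). Without water replicate 1 it was 0.42. In *idd5* the change was -0.75 and in Cadenza -0.80. The difference of the response, *Rht-D1b* minus Cadenza, was 1.44 with an adjusted p of 0.360 in limma's test, so it did not pass over all genes. The gene was singled out after its values had been seen.

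**Figure D4:**
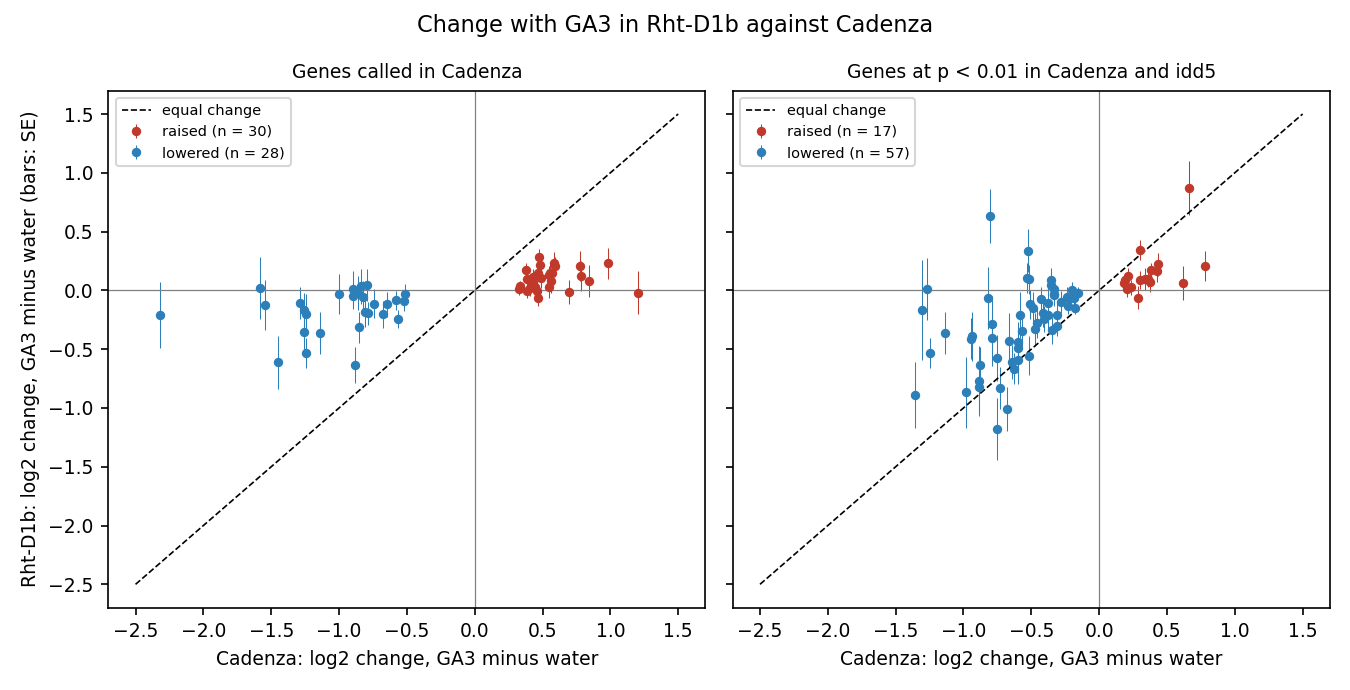
Change with GA3 in *Rht-D1b* (vertical axis, bars are standard errors) against Cadenza (horizontal axis), both on the log2 scale, for the 58 genes called in Cadenza on the left and the genes at an unadjusted p under 0.01 in Cadenza and *idd5* on the right. The called genes lie between -0.63 and 0.29 in *Rht-D1b*, and 1 raised and 1 lowered gene exceed 0.5 times their Cadenza change. On the right, 27 of the 57 lowered and 4 of the 17 raised genes do so. The panels were chosen at different thresholds in Cadenza, so these counts are not on an equal footing.

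The mean of the *Rht-D1b* and *idd5* responses, which rests on 8 GA3 and 8 water libraries, was tested as an addition made after the values had been seen. At an adjusted p of 0.01 it gave 0 genes (0%), at 0.05 it gave 5 genes (0.0086%), and 4527 genes (7.79%) had an unadjusted p under 0.05. All 5 were lower with GA3 and had an adjusted p of 0.0319 to 0.047 in limma's test. They were TraesCS1B02G201100, TraesCS6B02G117300 and genes on chromosomes 3B and 4D and on an unplaced sequence. The gene on 3B changed by -0.83 in *Rht-D1b*, -0.83 in *idd5* and -0.73 in Cadenza. The unplaced gene changed by -1.18, -1.22 and -0.76 in the same order. The gene on 4D changed by -0.61 in *Rht-D1b*, -0.49 in *idd5* and -0.02 in Cadenza. Its difference between *Rht-D1b* and Cadenza did not pass the adjusted threshold, which 0 genes passed.

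Starting from *Rht-D1b*, the genes at an unadjusted p under 0.05 were followed in the other genotypes, whose group means share no library with it. In the fit, however, a gene has the same spread in every genotype. A small p in *Rht-D1b* therefore favours a small p in the others, in either direction. For this reason the shares among all genes are no equal baseline here. Of the 2081 genes that were lower in *Rht-D1b*, 264 (12.7%) were also lower in *idd5* at an unadjusted p under 0.05. In the opposite direction 29 were higher there, beside 4.81% lower and 1.84% higher among all genes. In Cadenza 274 (13.2%) were also lower and 44 higher, beside 5.76% lower and 3.3% higher among all genes. These 264 and 274 genes made up 9.44% of the lower genes of *idd5* and 8.18% of those of Cadenza. Of the 1314 genes that were higher in *Rht-D1b*, 75 (5.71%) were also higher in *idd5*, beside 1.84% of all genes. In Cadenza 98 (7.46%) were also higher, beside 3.3% of all genes. In each of these genotypes 57 were lower, beside 4.81% of all genes in *idd5* and 5.76% in Cadenza. Under median-ratio scaling 143 genes were higher in both *Rht-D1b* and *idd5* and 165 in both *Rht-D1b* and Cadenza. The genes lower in both then fell to 183 with *idd5* and 196 with Cadenza. Without that scaling, 78 of the 58120 genes were lower and 16 higher in all 3 genotypes, at an unadjusted p under 0.05 in each. The shared spread favours these counts too, and whether they exceed what it gives was not tested. Across all 58120 genes, which are not independent replicates, the correlation of the change in *Rht-D1b* was 0.04 with that in *idd5* and 0.03 with that in Cadenza.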

How the data were processed

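RNA-seq libraries of leaf sheaths were made from 3 genotypes and 2 treatments with 4 replicates each. The authors trimmed the reads with Trimmomatic (version 0.39), quantified them with Kallisto against annotated wheat gene models, and deposited TPM values rounded to 2 decimals, one column a library. The methods and the series text name different releases of the gene models, and identifiers are printed as deposited. TPM does not preserve sequencing depth, which is therefore unknown, and precision rests on the replicates.

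From the deposited TPM, log2(TPM + 0.5) was fitted in limma (version 3.58.1, R version 4.3.3) with one mean for each of the 6 groups over all 24 libraries, variances moderated by empirical Bayes along a mean-variance trend, and p-values adjusted by Benjamini-Hochberg over the 63241 genes that reached 0.5 TPM in 4 or more of the 24 libraries. The threshold was an adjusted p of 0.01. Intervals are 95% intervals from this fit and, like all p-values, measure the spread between these samples. For single genes, mean TPM was also compared in an exact permutation test, two-sided. The model was tested on simulated data.

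Named genes were the *RHT* and *IDD5* homoeologues, the 2 genes higher and the 2 lower in *Rht-D1b* with the smallest p among genes averaging 2 TPM or more whose groups did not overlap, and the 2 genes raised and the 2 lowered with the smallest p in Cadenza. Rules by gene family and by tissue markers were not applied, because 0 identifiers matched the reference gene table. The 2 further genes of at least 2 TPM, with the smallest larger p of Cadenza and *idd5*, and 1 that went the other way were added later. The members and lists were chosen with earlier results of these data known. Alternatives were pseudocounts of 0.1 and 1, no filter, a filter at 2 TPM, a fit of only the 58120 genes, scaling by median ratios, a fit of each pair of groups alone, no trend, an adjusted p of 0.05, a replicate block and each *Rht-D1b* library left out in turn.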

Additional observations from a re-analysis of the deposited data

Results flagged for a closer look

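In 3 of the 34 groups of 4 libraries examined for the named genes in *Rht-D1b*, 1 library stood apart from the other 3 by Dixon's criterion, which chance meets in about 1 of 20 groups. *IDD5-A1* had 7.35 TPM in water replicate 2, against 8.75 to 8.90 TPM in the other water libraries. *IDD5-B1* had 9.57 TPM in GA3 replicate 3, against 7.86 to 8.11 TPM in the other GA3 libraries. TraesCS6B02G117300 had 18.15 TPM in water replicate 1, against 20.4 to 20.8 TPM in the other water libraries, and all 4 water libraries stayed above the GA3 libraries.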

How the results depend on the processing

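Under each alternative tried and with each library left out, 0 genes passed the adjusted threshold for the GA3 response of *Rht-D1b* and 0 for its difference from Cadenza. Under the alternatives, genes at an unadjusted p under 0.05 ranged from 2464 (filter at 2 TPM) to 5029 (no filter). These settings test different numbers of genes, so the range does not measure a change of the response. The higher ones numbered 2077 with no filter. A fit of the *Rht-D1b* groups alone gave 2657 genes, less than the share of 0.05 expected where nothing changes. With a library left out, genes higher without overlap numbered 1054 to 1532 and lower ones 1590 to 2206, since fewer libraries have to be apart. Genes at 0 in water only then numbered 0 to 4 and at 0 with GA3 only 3 to 8, and a filter at 2 TPM left 0 at 0 with GA3 only. For the genes lowered in Cadenza, the list was called again under each setting. Its median change in *Rht-D1b* was -0.16 with median-ratio scaling, -0.19 with no filter, -0.20 with no trend, -0.16 with a pseudocount of 1 and -0.22 to -0.11 with a library left out. The share below 0 was 100% with no filter and with no trend, and 77.8% to 100% with a library left out. The share above 0 of the genes raised in Cadenza was 62.5% to 97.1%. A fit of the 8 Cadenza libraries alone left no gene called in Cadenza, so the list could not be followed. Under median-ratio scaling the genes chosen in Cadenza and *idd5* were 48 raised and 29 lowered, in place of 17 and 57, and the lowered ones had a median of -0.33 in *Rht-D1b*. That scaling gave 143 genes higher in both *Rht-D1b* and *idd5* and 165 higher in both *Rht-D1b* and Cadenza, in place of 75 and 98. It gave 183 and 196 genes lower in both, in place of 264 and 274. With a library left out, the change of *IDD5-A1* was -0.034 to 0.061 and that of *IDD5-B1* -0.076 to 0.014. The mean response of both mutants gave 5 genes at an adjusted p of 0.05. At 0.01 it gave 0 genes with all libraries and 0 to 1 with a library left out, the 1 without water replicate 4. High-confidence gene models only was not run apart, since all 107891 identifiers are of that kind by their form. Depth limits could not be set, because TPM keeps none.

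The replicate numbers did not pair the libraries: deviations of same-numbered GA3 and water libraries correlated at 0.01, 0.06, -0.10 and 0.04, and 1 of 4 GA3 libraries correlated best with its own number. With the replicate block, 0 genes passed in *Rht-D1b*, and the genes lowered in Cadenza, 9 in that fit, had a median of -0.195 in *Rht-D1b* with 100% below 0.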
